A study of Mus musculus with 6 samples.

Results

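To examine how loss of HuD changes circRNAs made from genes that build, read and remodel chromatin, the circRNAs of such genes were followed on circRNA arrays from the striatum of HuD KO and WT mice. Members were all circRNAs in the deposited tables of higher and lower circRNAs, or in the HuD-bound list of the study, whose host gene symbol starts with the letters of a chromatin regulator family (Kdm, Kmt, Mll, Setd, Ash1, Chd, Smarc, Arid, Hdac, Ep300, Ep400, Crebbp, Nsd, Whsc1, Brd, Brwd3, Baz, Phf, Ino80, Ehmt, Ezh, Suz12, Bptf, Tet, Dnmt, Kat, Ncor, Ncoa, Asxl, Jmjd, Mbd or Atrx). This gave 95 circRNAs of 62 host genes, out of 3056 circRNAs in these sources and 14236 circRNAs on the array. Of the 95, 53 came from the deposited table of higher circRNAs and 29 from the table of lower circRNAs, while 13 were only on the HuD-bound list. A total of 14 were HuD-bound, since 1 of them, from Katnal1, was also in the table of higher circRNAs.

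Striatum was taken from adult male C57BL6 mice, with 1 array per mouse. Of the 6, 3 carried no working copy of Elavl4 (HuD KO, Elavl4-/-) and 3 were their WT littermates. The genotype is present in all cells and throughout development, so the comparison is not limited to striatal neurons or to adult life. HuD-bound circRNAs had been found in other animals, by immunoprecipitation of myc-tagged HuD from pooled striata of mice that overexpress it under the Camk2a promoter. Total RNA was treated with RNase R, which digests linear RNA, before labelling.

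HuD, the product of Elavl4, is a neuronal RNA-binding protein of the Hu family that binds AU-rich and GU-rich stretches of RNA. A circRNA forms when the end of an exon is spliced back onto the start of an upstream exon, so 1 gene can give several circles with different ends. Chromatin regulators write, remove or read chemical marks on histones and DNA, or move nucleosomes. Many of their genes are long, with many exons, and many are expressed in adult neurons. The array measures the circle and not the mRNA or protein, so no value here is a level of the chromatin protein itself.

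The letters also caught genes that do not regulate chromatin. Katnal1 encodes a microtubule-severing katanin, Chdc2 (current symbol Cfap47) a protein of cilia and flagella, and Mllt4 (current symbol Afdn) the adhesion protein afadin. These 3 are kept as members and named as such. The other hosts were sorted by symbol alone, so the 3 may not be the only ones. All 62 host genes were found in a GRCm38 gene table by symbol or synonym, and 93 of the 95 circRNAs lay inside the span of their host. The exceptions were a circRNA antisense to Kat6b and a circRNA of Kdm4dl. The deposited tables do not name their genome build, and positions are printed as deposited.

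Levels are log2 intensities with the 75th percentile of the array's circRNA probes set to 0, so a level can be compared between arrays for 1 circRNA but not between circRNAs. The share of probes well above background was 84.0% to 96.7% per array. One scan held the 3 WT arrays, another HuD KO replicates 1 and 2, and a further one only HuD KO replicate 3, so scan and genotype cannot be told apart. With limma over 13431 probes, 26.1% were higher and 37.2% were lower in HuD KO at an adjusted p under 0.05, and the median change was -0.11. In 29.8% of probes all HuD KO arrays lay above all WT arrays, and in 40.4% all lay below. Of all calls, 41.3% were higher. This share became 6.67% when arrays were scaled on their control probes, 67.7% when they were not scaled, 52.2% with the median and 54.8% with quantile normalization. No circRNA of Elavl4 was named in the sources, so loss of HuD RNA was not checked here. Nothing in the labels says that the mice came from separate litters. The p-values measure the spread between the arrays of a group, which in HuD KO also includes a difference of scan.

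The HuD-bound members were not chosen by the comparison of HuD KO with WT, so this comparison is a test for them. Of the 14, 6 rose, 3 fell and 5 did not pass the test (limma, adjusted p under 0.05 over all probes), which is 42.9% higher and 21.4% lower against the shares of 26.1% and 37.2% over all probes. Over all 657 HuD-bound circRNAs that were tested, 42.5% were higher and 92 were lower, so the members stood close to the rest of the HuD-bound list. Their median change was 0.36, beside 0.37 for all HuD-bound circRNAs and -0.11 for all probes. This median was 0.88 with no scaling, 0.56 with median scaling, 0.03 with normexp background correction and -0.42 with scaling on the control probes, where that of all probes was 0.41, 0.09, -0.19 and -0.90. It was 0.39 from HuD KO replicates 1 and 2 and 0.16 from replicate 3. The counts depended on the arrays and on scaling. They were 3 higher and 1 lower with the scan as a random block, and 0 higher and 7 lower with scaling on the control probes. Without WT replicate 2, 3 were higher, and without HuD KO replicate 2, 1 was lower. On each of the 6 arrays all 14 stood well above background. With limma over the 11807 probes that did so on all arrays, 3530 were higher and 3710 lower. Of the 14, 6 and 3 were called in that fit.

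The circles of the 4 HuD-bound members whose call was lost in at most 1 of 19 alternatives are shown first, as the 60-base sequence across the back-splice that the array probe was designed for, in the strand of the RNA. No letters are in capitals.
circEhmt1 (mmu_circRNA_33154), chr2:24847943-24877626, minus strand: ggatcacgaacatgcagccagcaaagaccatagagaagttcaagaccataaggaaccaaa
circKatnal1 (mmu_circRNA_39707), chr5:148891628-148894276, minus strand: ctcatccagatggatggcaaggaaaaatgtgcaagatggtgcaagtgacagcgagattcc
circMbd5 (mmu_circRNA_33521), chr2:49272040-49313725, plus strand: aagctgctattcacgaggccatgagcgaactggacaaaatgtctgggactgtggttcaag
circSetd5 (mmu_circRNA_40760), chr6:113128411-113138200, plus strand: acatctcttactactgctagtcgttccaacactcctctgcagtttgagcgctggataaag

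The largest HuD-bound rise was in circEhmt1 (mmu_circRNA_33154), from the gene of a histone H3 lysine 9 methyltransferase. Its level was 1.82, 1.79 and 1.88 on the WT arrays and 3.01, 3.04 and 2.88 on the HuD KO arrays. The groups did not overlap, and the difference was many times the spread within either. The change was 1.15 ± 0.13 (SE, n = 3 per group; limma, adjusted p = 0.000214), or 2.22-fold. A second circle of Ehmt1, mmu_circRNA_33158 at chr2:24852664-24884702, was at -0.26, -0.24 and -0.25 in WT and at -0.07, 0.27 and 0.76 in HuD KO. Its HuD KO arrays were spread out, and the lowest stood just above WT. This change was 0.57 ± 0.21 (SE; limma, adjusted p = 0.0457), was lost in 10 of 19 alternatives, and turned to -0.21 with scaling on the control probes.

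circMbd5 (mmu_circRNA_33521), from a gene of a methyl-CpG-binding domain protein, stood at -1.09, -1.06 and -0.86 in WT and at -0.06, -0.15 and -0.18 in HuD KO. All HuD KO arrays were above all WT arrays. The rise was 0.87 ± 0.14 (SE; limma, adjusted p = 0.000953). circKatnal1 (mmu_circRNA_39707), whose host is no chromatin gene, was at -0.60, -0.52 and -0.24 in WT and at 0.69, 0.62 and 0.76 in HuD KO. The rise was 1.14 ± 0.15 (SE; limma, adjusted p = 0.000419), and this was the member that the deposited table of higher circRNAs also held. The calls of circKatnal1, circMbd5 and the first circle of Ehmt1 were lost only with scaling on the control probes, where the changes were 0.36, 0.09 and 0.36 in that order.

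circSetd5 (mmu_circRNA_40760), from a gene of a SET domain protein linked to intellectual disability in people, fell. Its level was -1.14, -1.14 and -0.97 in WT and -1.54, -1.93 and -1.96 in HuD KO, with no overlap. The change was -0.72 ± 0.16 (SE; limma, adjusted p = 0.00527), and the only alternative of 19 that lost the call was no scaling, with -0.21. circKdm5c (mmu_circRNA_45843), whose host on the X chromosome encodes a histone H3 lysine 4 demethylase, was at 1.25, 1.21 and 1.32 in WT and at 0.53, 0.59 and 0.96 in HuD KO. It too was lower on every HuD KO array, by -0.57 ± 0.16 (SE; limma, adjusted p = 0.015), and lost the call in 5 of 19 alternatives. The last fall was in mmu_circRNA_21810 of Ncoa7, a gene of a nuclear receptor coactivator, at -0.44 ± 0.15 (SE; limma, adjusted p = 0.0282). It was at -1.83, -1.84 and -2.11 in WT and at -2.49, -2.29 and -2.33 in HuD KO. The call was lost in 10 of 19 alternatives, with a change of -0.06 with quantile normalization and 0.07 with no scaling.

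Both histone deacetylase members of the HuD-bound list were measured. circHdac2 (mmu_circRNA_21836) was at -2.33, -2.32 and -2.25 in WT and at -1.79, -1.91 and -1.87 in HuD KO, a narrow spread in both groups. The rise was 0.45 ± 0.13 (SE; limma, adjusted p = 0.016). Its call was lost in 6 of 19 alternatives, with a change of 0.07 with normexp and -0.34 with scaling on the control probes. circHdac4 (mmu_circRNA_20538) was at -2.14, -2.12 and -2.07 in WT and at -1.55, -1.60 and -2.12 in HuD KO. HuD KO replicate 3 lay within the WT values, and the change of 0.36 ± 0.18 (SE) did not pass the test (limma, adjusted p = 0.118). The other members that did not pass were mmu_circRNA_011781 of Arid1b (0.37 ± 0.15), mmu_circRNA_21811 of Ncoa7 (0.07 ± 0.13), mmu_circRNA_26364 of Nsd1 (-0.05 ± 0.15) and mmu_circRNA_35350 of Setd7 (-0.54 ± 0.24), each with its SE.

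Arid1b, a gene of a subunit of the BAF nucleosome remodelling complex, gave 2 HuD-bound circles that start at the same base, so their probes share a run of 47 bases, in capitals here.
circArid1b (mmu_circRNA_011781), chr17:5040579-5040774, plus strand: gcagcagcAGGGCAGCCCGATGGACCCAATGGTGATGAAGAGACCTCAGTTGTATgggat
circArid1b (mmu_circRNA_018649), chr17:5040579-5053617, plus strand: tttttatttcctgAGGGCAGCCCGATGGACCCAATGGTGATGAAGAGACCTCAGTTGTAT
The short circle spans 195 bases of the genome and the long one 13038. The long circle was at -0.31, -0.33 and -0.41 in WT and at 0.64, 0.68 and -0.11 in HuD KO, a rise of 0.75 ± 0.22 (SE; limma, adjusted p = 0.0188). The call was lost in 7 of 19 alternatives, 4 of which left out 1 array, and scaling on the control probes gave -0.03. The short circle was at 1.34, 1.19 and 1.03 in WT and at 1.57, 1.67 and 1.43 in HuD KO, without overlap. Because the probes share sequence, the 2 values are not independent.

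**Figure D1:**
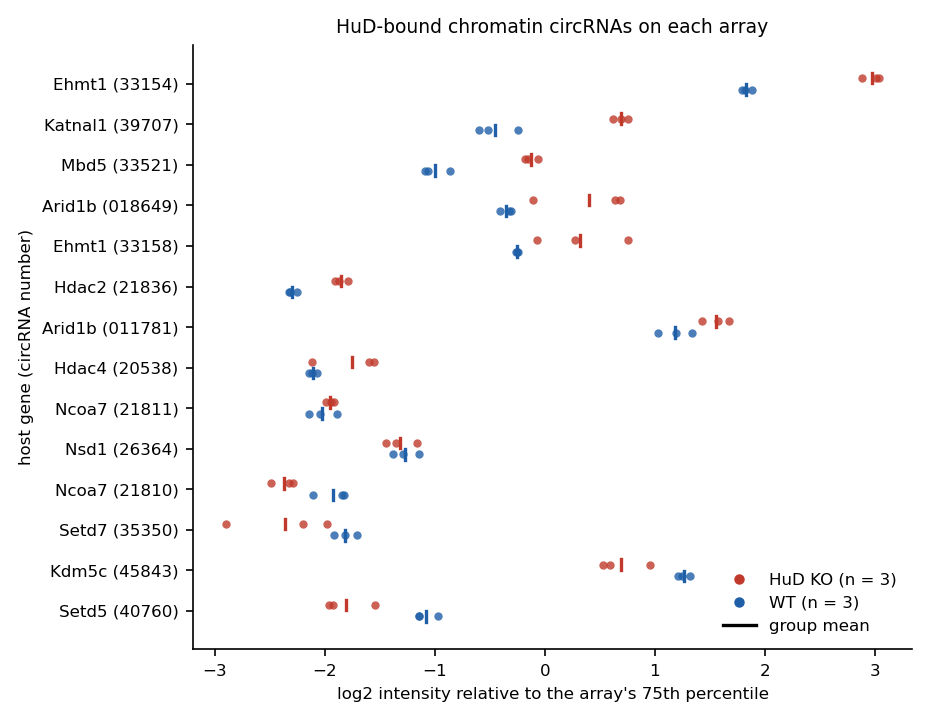
Level of each HuD-bound chromatin circRNA on each array, as log2 intensity relative to the array's 75th percentile (x axis), in HuD KO (red, n = 3) and WT (blue, n = 3), with the group mean as a vertical bar and circRNAs ordered by their change. In 7 circRNAs all HuD KO arrays lay above all WT arrays and in 4 all lay below, where over all probes the shares were 29.8% and 40.4%.

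The 82 members of the deposited tables were listed there because HuD KO and WT differed by a fold of 2 with an unadjusted p of 0.05 on these same arrays, so their changes are given as a description, with no test. Of these 82, 53 (64.6%) were higher and 29 (35.4%) lower, whereas over all listed circRNAs 45.8% were higher and 54.2% lower. Members made up 4.65% of the higher table and 2.15% of the lower table. In the 29 listed lower members the change ran from -3.40 to -1.04 with a median of -1.80, beside a median of -1.99 over all 1348 listed lower circRNAs. In the 53 listed higher members it ran from 0.83 to 2.23 with a median of 1.23, beside 1.33 over the 1131 listed higher circRNAs that were tested. All HuD KO arrays lay above all WT arrays in 53 of the 53 and below them in 29 of the 29, as in 1127 of all 1131 listed higher and 1346 of all 1348 listed lower circRNAs, against 29.8% and 40.4% of all probes. These arrays chose the members, so nothing is read from it. Closest to the threshold in the deposited normalized values were mmu_circRNA_43831 of Smarca4 at -1.016 and mmu_circRNA_19864 of Phf3 at 1.001, and the largest changes among members outside the tables were those of circEhmt1 (mmu_circRNA_33154) and circSetd5.

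Of the listed members, the 53 stayed above 0 and the 29 below 0 with each of the scalings and background corrections tried. These arrays chose the members, so their kept sign is no support. The change nearest 0 among the 53 was 0.05 with scaling on the control probes and 0.20 with normexp. Among the 29 it was -0.53 with no scaling. Sizes depended on the processing. With scaling on the control probes 5 of the 53 were over 2-fold higher, and with normexp background correction 19 were, against 48 in the values reported here. Of the 29, 21 were over 2-fold lower with normexp and 17 with no scaling, against 29. HuD KO replicate 3, scanned alone, was the closest of the HuD KO arrays to WT in most members. It was the highest HuD KO array in 22 of the 29 lower members and the lowest in 38 of the 53 higher members. Over all probes, which mix both directions, it was the highest in 39.6% and the lowest in 40.8%. All listed circRNAs leaned the same way as the members. Median levels on HuD KO replicates 1, 2 and 3 were -1.78, -1.75 and -1.30 over all listed lower circRNAs. Over all listed higher ones they were 0.39, 0.39 and 0.06. The median change of the lower members was -1.92 from HuD KO replicates 1 and 2 and -1.52 from replicate 3. For the higher members these medians were 1.32 and 1.05.

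**Figure D2:**
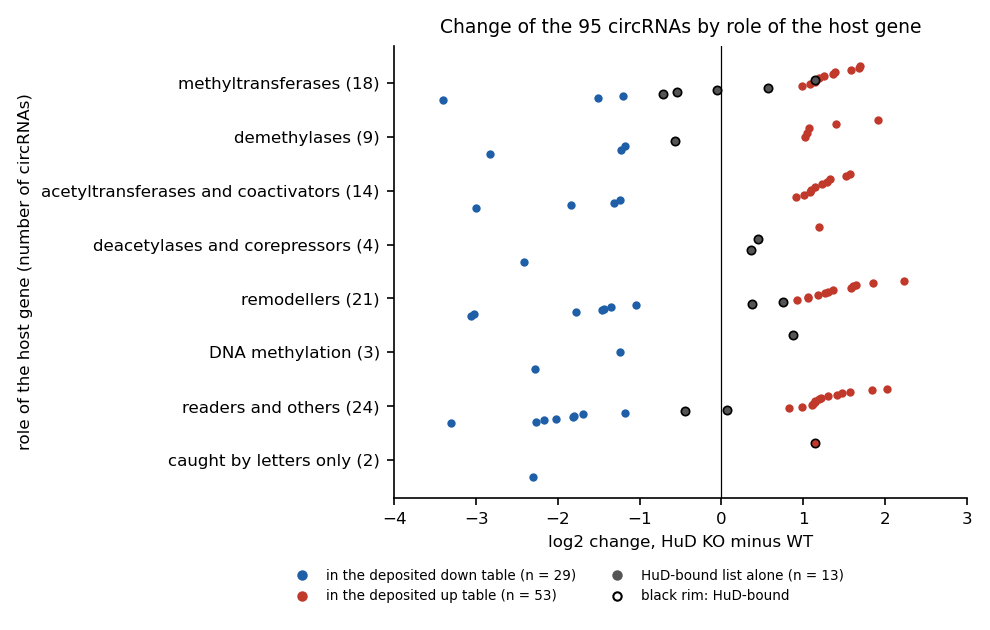
Log2 change of each of the 95 circRNAs between HuD KO and WT (x axis), by the role of the host gene (rows), with 29 circRNAs of the deposited table of lower circRNAs in blue, 53 of the table of higher circRNAs in red, 13 of the HuD-bound list alone in grey, and a black rim on HuD-bound circRNAs. Listed higher and listed lower circRNAs occurred in every role except DNA methylation, where the 2 listed circRNAs were lower and the HuD-bound circle of Mbd5 rose by 0.87, and the gap around 0 comes from the threshold of the tables.

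Histone methyltransferases and their partners gave 18 members of 11 genes, with 10 listed higher, 3 listed lower and 5 only on the HuD-bound list. The 3 listed lower came from Ezh2, Ash1l (-1.51) and Setd4 (-1.20), and among the higher was a circle of Kmt2c (1.14), which encodes a histone H3 lysine 4 methyltransferase. circEzh2 (mmu_circRNA_40229, chr6:47545675-47558294, minus strand), from the gene of the catalytic subunit of Polycomb repressive complex 2, had the lowest change of all members. Its back-splice sequence, with no letters marked, is shown because this is the extreme of the members.
circEzh2 (mmu_circRNA_40229): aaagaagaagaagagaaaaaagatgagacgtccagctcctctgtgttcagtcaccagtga
Its level was 5.74, 6.21 and 6.27 in WT and 2.93, 2.64 and 2.43 in HuD KO. The means were 6.07 ± 0.29 and 2.67 ± 0.25 (SD, n = 3 each), a change of -3.40, or 10.6-fold lower. Suz12 encodes another core subunit of the same complex, and its circle (mmu_circRNA_23829) was higher, at -1.80, -1.70 and -1.50 in WT and -0.50, -0.61 and -0.62 in HuD KO. The changes of these partner genes' circles thus pointed in opposite directions, at -3.40 and 1.09.

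The NSD family methylates lysine 36 of histone H3. Whsc1 (current symbol Nsd2), Whsc1l1 (current symbol Nsd3) and Nsd1 together had 8 listed circRNAs, and all 8 were higher. The 3 circles of Whsc1 use 2 start sites and 2 end sites. The capitals in the first pair mark the run of 13 bases that the probes of the circles with a common start share, and those in the second pair the run of 45 bases of the circles with a common end.
circWhsc1 (mmu_circRNA_003195), chr5:33843111-33846267: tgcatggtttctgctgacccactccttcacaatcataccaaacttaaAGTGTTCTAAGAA
circWhsc1 (mmu_circRNA_010792), chr5:33843111-33868878: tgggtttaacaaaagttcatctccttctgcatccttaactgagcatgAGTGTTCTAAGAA
circWhsc1 (mmu_circRNA_38427), chr5:33821658-33868878: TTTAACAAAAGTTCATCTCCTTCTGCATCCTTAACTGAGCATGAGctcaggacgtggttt
circWhsc1 (mmu_circRNA_010792), chr5:33843111-33868878: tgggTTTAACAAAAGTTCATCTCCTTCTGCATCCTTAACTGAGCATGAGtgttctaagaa
All lie on the plus strand. mmu_circRNA_010792 was at 3.21, 3.34 and 3.39 in WT and at 5.02, 5.07 and 4.97 in HuD KO. The SDs were 0.09 in WT and 0.05 in HuD KO, and the change was 1.70, or 3.26-fold. mmu_circRNA_38427, which ends at the same base, went from a WT mean of 2.54 ± 0.03 to 4.13 ± 0.13 (SD, n = 3 each), a change of 1.59. The short circle mmu_circRNA_003195 changed by 1.36, from 4.37 ± 0.09 to 5.74 ± 0.23. The circles of Whsc1l1 changed by 1.25 (mmu_circRNA_014333), 1.19 (mmu_circRNA_42687) and 0.98 (mmu_circRNA_42689), with the latter pair at 0.47 and 0.23 with normexp.

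Nsd1, the gene mutated in Sotos syndrome, had 2 listed circles whose starts lie 2 bases apart and whose probes share a run of 50 bases, in capitals.
circNsd1 (mmu_circRNA_000476), chr13:55233894-55248077, plus strand: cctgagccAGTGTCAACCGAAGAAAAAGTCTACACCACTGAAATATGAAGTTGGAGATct
circNsd1 (mmu_circRNA_19094), chr13:55233892-55248077, plus strand: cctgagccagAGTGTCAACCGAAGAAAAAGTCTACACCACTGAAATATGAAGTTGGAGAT
They were at -0.34 ± 0.15 and -0.32 ± 0.18 in WT and at 1.34 ± 0.21 and 1.07 ± 0.34 in HuD KO (SD, n = 3 each), and the probes can hardly tell these circles apart. The longer HuD-bound circle of the same gene, mmu_circRNA_26364 at chr13:55213203-55310541, contains that stretch of the genome and was at -1.38, -1.14 and -1.29 in WT and -1.44, -1.16 and -1.35 in HuD KO. Its groups overlapped fully. The circles of 1 gene thus changed by 1.68, 1.39 and -0.05.

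Histone demethylases gave 9 members of 7 genes, with 5 listed higher and 3 listed lower. circKdm5d (mmu_circRNA_45985), from the Y-linked relative of Kdm5c, was at -3.15, -3.54 and -3.49 in WT and -1.39, -1.44 and -1.62 in HuD KO. The change was 1.91, or 3.76-fold, and 0.63 with normexp, and all 6 mice were male. The HuD-bound circle of its X-linked relative Kdm5c moved the other way, by -0.57. Both circles of Kdm3a, a histone H3 lysine 9 demethylase, were higher, by 1.40 and 1.07, as was that of Kdm1a, a histone H3 lysine 4 demethylase, by 1.05. The circles of Kdm4d and Kdm4dl were lower, by -1.23 and -2.83, but the probe of circKdm4dl (mmu_circRNA_43780) was well above background on 2 of 3 HuD KO arrays, which limits what its lower level means.

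Acetyltransferases and coactivators gave 14 members of 8 genes, with 10 listed higher and 4 lower. Crebbp and Ep300 encode closely related histone acetyltransferases. Both circles of Ep300 were higher, by 1.33 (mmu_circRNA_28846) and 1.01 (mmu_circRNA_003429). The circle of Crebbp (mmu_circRNA_29128) was lower by -1.31, at 0.13, 0.48 and 0.05 in WT and -1.22, -1.23 and -0.81 in HuD KO. The nuclear receptor coactivator genes Ncoa1, Ncoa3 and Ncoa6 each had 1 listed circle, higher by 1.14, 0.91 and 1.23. Ncoa2 had a higher circle (1.57) and a lower one (-1.24). Beside the HuD-bound ones, histone deacetylases gave a higher circle of Hdac9 (mmu_circRNA_24911) with a change of 1.19 and a lower circle of Hdac4 (mmu_circRNA_014154) with a change of -2.41.

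Nucleosome remodellers and their subunits gave 21 members of 12 genes, with 12 listed higher, 7 listed lower and the 2 HuD-bound circles of Arid1b. Smarca1, which encodes the ISWI remodelling motor SNF2L, had 3 circles and all were higher. mmu_circRNA_45449 (chrX:47851644-47884203) was at -2.50, -2.51 and -2.27 in WT and at -0.29, 0.10 and -0.41 in HuD KO, a change of 2.23 that was the highest of all members, 4.68-fold. The other two changed by 1.65 (mmu_circRNA_45443) and 1.18 (mmu_circRNA_018341). With normexp the changes were 1.15, 0.42 and 0.55, and these 3 circles lie across a shared stretch of the gene. Smarca4, which encodes the BAF motor BRG1, had 2 circles, both lower, by -1.78 and -1.04. The circle of Smarcc1, a core BAF subunit, was also lower, by -1.35. circChd9 (mmu_circRNA_003987), from a chromodomain helicase gene, was at -1.96, -2.01 and -1.90 in WT and 0.01, -0.04 and -0.26 in HuD KO, a change of 1.86, or 1.09 with normexp. Both circles of Ino80 were higher, by 1.37 and 0.93, as were those of Baz1b (1.27) and Baz2b (1.06), whereas those of Ep400 (-1.46) and Atrx (-1.43) were lower. The listed Ep400 circle is intronic and spans only 68 bases.

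DNA methylation genes gave few circles. circDnmt3a (mmu_circRNA_24567), from the gene of a de novo DNA methyltransferase, was at 0.21, 0.57 and 1.04 in WT and -1.78, -2.26 and -0.99 in HuD KO. The SDs were 0.42 in WT and 0.64 in HuD KO, and the change was -2.28, or 4.86-fold lower. The other listed circle came from Mbd5 (mmu_circRNA_33512) and changed by -1.24, opposite in sign to the HuD-bound circle of the same gene.

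Genes of readers of histone marks and of other proteins gave 24 members of 17 genes, with 14 listed higher and 8 lower, and these counts include the circle of Mllt4, whose host is no chromatin gene. The listed circles of the bromodomain genes Brd7 (mmu_circRNA_43278) and Brwd3 were lower, by -2.27 and -1.81. circBrd7 was at 0.93, 0.64 and 0.66 in WT and at -1.95, -1.87 and -0.77 in HuD KO, with HuD KO replicate 3 closest to WT. Both circles of Arid4b were lower as well, by -2.17 and -1.69. The circle of Arid5b (mmu_circRNA_22170), a DNA-binding partner of a histone demethylase, was higher by 1.84, with -3.27, -3.44 and -3.30 in WT and -1.45, -1.34 and -1.70 in HuD KO, and by 0.56 with normexp. Of the plant homeodomain (PHD) finger genes, Phf3, Phf14 (1.12), Phf20 (1.48 and 1.11) and Phf21a (1.15) had higher circles and Phf6 (-2.02) and Phf7 lower ones. The probe of circPhf7 (mmu_circRNA_27402) was well above background on only 1 of 3 HuD KO arrays, so its change of -3.31 is not read as a size. Both circles of Mllt10 (1.57 and 1.15) and of Asxl2 (1.30 and 1.22) were higher, as was that of Mllt3 (0.98), while that of Jmjd8 was lower (-1.18). Katnal1, described above, was 1 of the 3 hosts named as no chromatin genes. Of the others, the circle of Mllt4 was higher by 1.20 and that of Chdc2 (mmu_circRNA_45544) lower by -2.30 (-1.07 with normexp).

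Phf3, whose protein binds RNA polymerase II, gave 3 circles annotated as intronic, on the minus strand of chromosome 1, that share their upstream end at base 30863255. In the upper pair of sequences capitals mark the run of 30 bases that both hold, and in the last one the run of 26 bases that it shares with mmu_circRNA_19863.
circPhf3 (mmu_circRNA_19864), chr1:30837104-30863255: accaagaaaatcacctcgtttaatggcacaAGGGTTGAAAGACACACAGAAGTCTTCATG
circPhf3 (mmu_circRNA_19863), chr1:30829842-30863255: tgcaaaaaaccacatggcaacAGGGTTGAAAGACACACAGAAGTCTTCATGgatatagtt
circPhf3 (mmu_circRNA_000730), chr1:30862986-30863255: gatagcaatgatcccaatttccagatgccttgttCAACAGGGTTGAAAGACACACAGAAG
The longest circle, mmu_circRNA_19863, was at -3.34, -2.93 and -2.85 in WT and at -1.19, -0.69 and -1.14 in HuD KO, a change of 2.03, or 4.09-fold. The others changed by 1.41 (mmu_circRNA_000730) and 0.83 (mmu_circRNA_19864). With normexp these changes were 0.80, 0.89 and 0.25. In the values reported here the 3 thus spanned 1.20 on the log2 scale although they share an end.

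Several host genes gave circles that differed in direction. Of 19 hosts with 2 or more listed circRNAs, 11 had only higher ones, 2 had only lower ones (Arid4b and Smarca4) and 6 had both. The 6 were Chd2, Kat6a, Kat6b, Kdm4c, Ncoa2 and Smarcad1. In 4 of these 6 the lower circle was not of the exonic class. For Chd2, a chromodomain helicase gene, the exonic circles mmu_circRNA_41662 and mmu_circRNA_41665 were higher by 1.61 and 1.30, or by 1.48 and 0.44 with normexp. The small sense overlapping circle mmu_circRNA_19463, which spans 976 bases within both, was at -0.75, -0.81 and -1.04 in WT and at -4.23, -4.29 and -3.26 in HuD KO, a change of -3.06, or -1.44 with normexp. For Ncoa2 the exonic circle was higher by 1.57 and the intronic one lower by -1.24 (1.58 and -0.84 with normexp). For Kdm4c the exonic circle was higher by 1.02 and the sense overlapping one lower by -1.18 (0.47 and -0.9 with normexp).

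Kat6a and Smarcad1 had opposite changes among exonic circles. Kat6a encodes a MYST family histone acetyltransferase. Its circles mmu_circRNA_42637 and mmu_circRNA_42639 were 2.15-fold and 2.12-fold higher, but their log2 changes were only 0.73 and 0.38 with normexp. The circle mmu_circRNA_42640 was at 1.02, 1.22 and 0.94 in WT and at -0.88, -0.80 and -0.67 in HuD KO. Its change was -1.84, and from -2.62 to -1.32 over 15 alternatives. mmu_circRNA_42639 (chr8:22911659-22926470) and mmu_circRNA_42640 (chr8:22919324-22932714) overlap in the genome, and their HuD KO values moved to opposite sides of WT. Smarcad1, a remodeller gene, had higher circles mmu_circRNA_40356 (1.58) and mmu_circRNA_40354 (1.06), at 0.37 and 0.52 with normexp. Its remaining circle, mmu_circRNA_40352 (chr6:65052619-65084003), was at 2.89, 3.18 and 3.29 in WT and at 0.17 and 0.02 in HuD KO replicates 1 and 2. The spot of HuD KO replicate 3 was flagged as an outlier by the scanner software and left out of the fit. The change was -3.03, or -2.34 with that spot kept.

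Kat6b, the paralogue of Kat6a, had 2 exonic circles with a common end, both higher. The run of 24 bases that their probes share, from the common end of the circles, is in capitals.
circKat6b (mmu_circRNA_003709), chr14:21626718-21637640, plus strand: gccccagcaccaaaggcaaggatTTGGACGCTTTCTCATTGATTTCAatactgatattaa
circKat6b (mmu_circRNA_015449), chr14:21618890-21637640, plus strand: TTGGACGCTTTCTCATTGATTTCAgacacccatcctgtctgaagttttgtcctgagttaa
mmu_circRNA_003709 was at 2.48, 2.54 and 2.79 in WT and 3.87, 3.85 and 3.95 in HuD KO, a change of 1.29, and mmu_circRNA_015449 changed by 1.53. The antisense circRNA mmu_circRNA_27181, which lies on the other strand and outside the RefSeq span of the gene, was at 1.18, 1.12 and 1.37 in WT and at -2.36, -2.58 and -0.41 in HuD KO. HuD KO replicate 3 stood well above the other two HuD KO arrays, and the level was 8.02-fold lower in HuD KO. The HuD-bound circle of Mbd5 likewise differed in sign from the listed circle of the same host, with 0.87 against -1.24. For Hdac4 the values were 0.36 against -2.41. That change of 0.36 did not pass the test (limma, adjusted p = 0.118), and its sign turned with normexp and with scaling on the control probes.

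**Figure D3:**
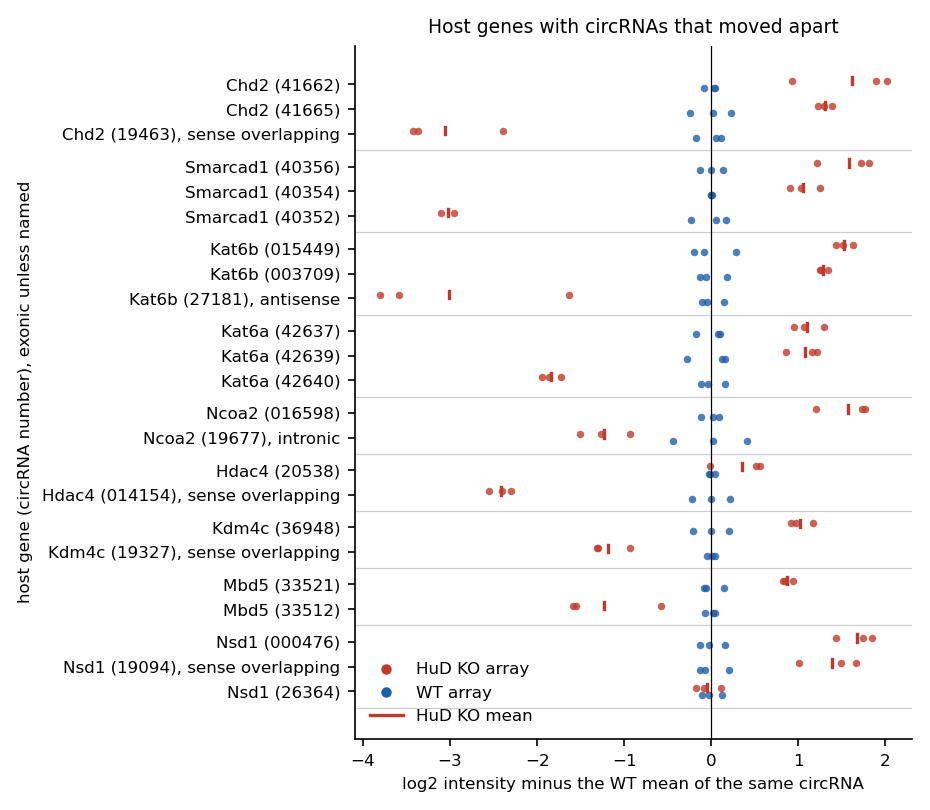
Log2 intensity of each circRNA minus its own WT mean (x axis) on each HuD KO array (red, with the mean as a bar) and WT array (blue), for 9 host genes whose circRNAs changed by different amounts or in opposite directions. The lower circRNAs of Chd2 and Smarcad1 changed by -3.06 and -3.03 while their other circRNAs lay above WT, and mmu_circRNA_26364 of Nsd1 overlapped WT with a change of -0.05.

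The listed higher members were mostly exonic. Exonic circles made up 48 of 53 (90.6%) of the higher and 18 of 29 (62.1%) of the lower members, beside 83.2% and 66.0% of all listed higher and lower circRNAs. The other lower members were 7 sense overlapping, 3 intronic and 1 antisense. Exonic circles spanned a median of 16893 bases of the genome in the higher and 15617 in the lower members, against 19410 and 9334 over the tables, and 12346 in the HuD-bound members. Span includes introns and is not the length of the circle.

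Elements bound by Hu proteins are rich in A and U, so the 60-base junction sequences were searched, on the printed strand only, for ATTTA and for a run of T (TTTTT). The first was in 3 of the 95 members (3.16%) and in 4.16% of all 3056 sequences of the sources. The run of T was in 7 members (7.37%) and in 5.14% of all. Among the 14 HuD-bound members, 0 held the first motif and 1 the second, the long circle of Arid1b printed above. The median GC content was 43.3% in the members and 45.0% in all. These windows cover only the bases around the back-splice, and the rest of each circle was not searched.

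The deposited tables name up to 5 predicted miRNAs for each circle. For the 82 listed members 261 miRNAs were named, 188 of them for a single member. The commonest were mmu-miR-7092-3p for 12 members (14.6%, against 10.9% of all listed circRNAs), mmu-miR-1903 for 11 (13.4% against 8.44%) and mmu-miR-6946-3p for 11 (13.4% against 4.54%). mmu-miR-9-5p, a miRNA of neural progenitors and neurons, was named for 3 members, which were 1 circle of Kat6a (mmu_circRNA_42637) and both exonic circles of Kat6b, all higher in HuD KO. Since the Kat6b circles overlap, these are not separate observations. No pair of these miRNAs shares a whole seed (bases 2 to 8). The seeds of mmu-miR-1903 and mmu-miR-6946-3p overlap when shifted, so their sites can overlap and their counts are not separate. Both were named for the circles of Ezh2 and Atrx, among others. The mature sequences, with the seed in capitals, show seeds rich in pyrimidines.
mmu-miR-7092-3p: uGUUCUUUguuuuguuugccuuag
mmu-miR-1903: cCUUCUUCuucuuccugagaca
mmu-miR-6946-3p: uUUCUUCUcuucccuuucag
mmu-miR-9-5p: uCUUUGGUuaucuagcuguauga
The circle of Ezh2 was among those named for each of the first 3. The sites are predictions, and no miRNA was measured here.

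Chromatin genes outside these letters were counted as well. Of 97 further genes, 26 had circRNAs in the sources, with 21 listed higher, 12 listed lower and 7 HuD-bound. Of these 7, 2 rose, 2 fell and 3 did not pass the test (limma, adjusted p under 0.05), against 26.1% higher and 37.2% lower over all probes, with a median change of 0.34. Markers of cell types were rarely host genes. Of 34 marker genes of striatal neurons, oligodendrocytes, astrocytes, microglia, endothelial cells and cortical excitatory neurons, 4 had circRNAs in the sources, among them Bcl11b, Slc1a2 and Pecam1. Pecam1, an endothelial marker, had 2 listed circRNAs, both lower. The remaining marker genes were not named in the sources, so the cell composition of the samples could not be compared, and fewer cells of a type and less circRNA per cell cannot be told apart.

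**Figure D4:**
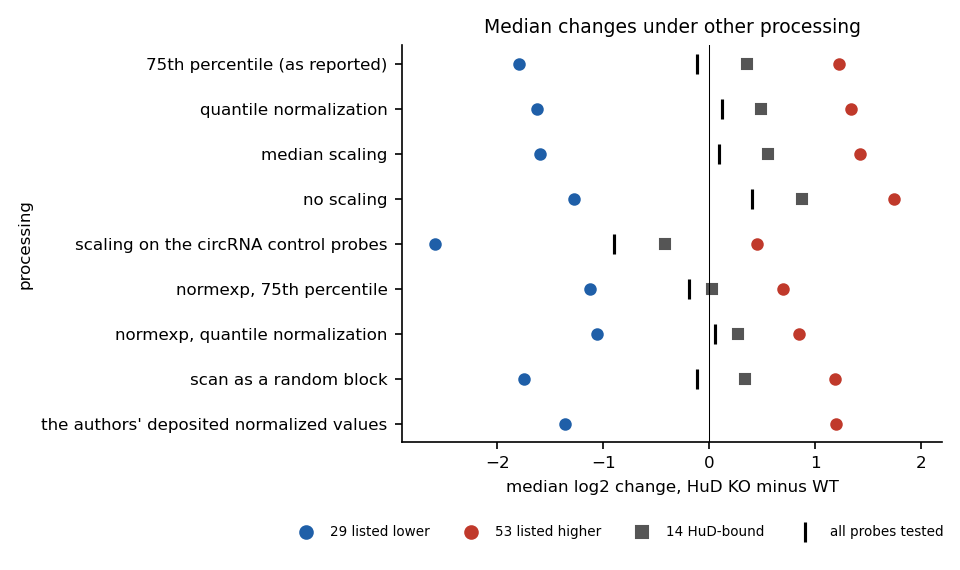
Median log2 change between HuD KO and WT (x axis) of the 29 listed lower members (blue), the 53 listed higher members (red), the 14 HuD-bound members (grey squares) and all tested probes (black bars) under each way of processing (rows). With scaling alone the median of the lower members ran from -2.59 to -1.28 and that of the higher from 0.45 to 1.75, with normexp both came closer to 0 (-1.12 and 0.70), and the HuD-bound members were below 0 only with scaling on the control probes.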

How the data were processed

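Total RNA of each mouse, digested with RNase R, was hybridized with Cy3 label to an Arraystar mouse circRNA array and scanned, and Agilent Feature Extraction 11.0.1.1 gave the spot values. The deposited scanner files hold spot intensity, background-corrected by the scanner software and not normalized between arrays. The authors also deposited tables of higher and lower circRNAs with raw intensity, normalized log2 intensity, unlogged fold change (ratio), p-value and FDR. The fold changes and p-values of the authors' comparison were not used. The step that made the normalized log2 values and the genome build are not given in the sources used here. Columns of other samples numbered 0.

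Here, log2 corrected intensity minus the array's 75th percentile over circRNA probes was compared with limma 3.58.1 in R 4.3.3, with Benjamini-Hochberg adjustment over all 13431 probes detected well above background throughout at least 1 group (3 arrays) and with 2 or more unflagged values per group. Spots flagged as outliers were left out. Precision is limited by the number of arrays. The plan named the mean spot signal for normexp, but the files hold the median, which was used. Membership, class and sequence of HuD-bound circRNAs came from the study's list, and miRNA sequences from RefSeq. The fit was also run on simulated arrays without scan or scaling differences, so that run says nothing about the effects of scan or scaling.

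The members and lists were chosen with earlier results of these data known. Circles named were all HuD-bound members, the 8 largest rises and 8 largest falls among listed members well above background on all 6 arrays, and those of hosts with circles in both tables or with 3 or more. Others are named for their host's role, after their values were seen. Some results for single host genes are not reported here.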

Additional observations from a re-analysis of the deposited data

How the results depend on the processing

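The settings were planned with the analysis, and every listed member kept its sign under those that could fit it. These arrays chose the listed members, so the kept signs are no support. The number of probes called higher and lower was 3510 and 4991, became 5339 and 2553 with no scaling and 605 and 8472 with scaling on the control probes, and ranged from 2743 to 3873 and from 4326 to 5276 without 1 array. Of the HuD-bound members, 6 were called higher and 3 lower, against 0 and 7 with control-probe scaling, 8 and 0 with no scaling, 8 and 1 with median scaling, 3 and 1 with the scan as a random block, and from 3 to 7 and from 1 to 3 without 1 array. The median change of the listed higher members (1.23) was 1.43 with median scaling, 1.75 with no scaling, 0.45 with control-probe scaling, 0.70 with normexp and 0.85 with normexp and quantile normalization, and from 1.17 to 1.32 without 1 array. That of the listed lower members (-1.80) was -1.63 with quantile normalization, -1.60 with median scaling, -1.28 with no scaling, -2.59 with control-probe scaling, -1.12 with normexp, -1.06 with normexp and quantile normalization, -1.36 in the deposited normalized values, and from -1.92 to -1.62 without 1 array. With control-probe scaling the sign turned in mmu_circRNA_011781 (-0.41) and mmu_circRNA_018649 (-0.03) of Arid1b, mmu_circRNA_20538 of Hdac4 (-0.43), mmu_circRNA_21811 of Ncoa7 (-0.72), mmu_circRNA_21836 of Hdac2 (-0.34) and mmu_circRNA_33158 of Ehmt1 (-0.21). With normexp it turned in Hdac4 (-0.0048) and mmu_circRNA_21811 (-0.06), and with no scaling in mmu_circRNA_21810 of Ncoa7 (0.07). The change near 0 of mmu_circRNA_26364 of Nsd1 was 0.14 with quantile normalization, 0.15 with median scaling, 0.47 with no scaling, 0.10 with normexp and quantile normalization, and from -0.13 to 0.02 without 1 array. The causes were not tested. The labels do not say whether equal replicate numbers mark paired mice. Deviations of same-numbered arrays had correlations from -0.08 to -0.01, which cannot show whether the mice were paired. With a replicate block 3200 probes were called higher and 4776 lower, and 5 and 2 HuD-bound members. Without HuD KO replicate 1 or 2, mmu_circRNA_40352 of Smarcad1 could not be fitted. Signal over background limits the circles of Phf7 and Kdm4dl.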
